A study of Mus musculus with 15 samples.

Results

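Cap1, Cap2, Cfl1, Cfl2, Dstn, Pfn1 and Pfn2 encode the proteins that recycle actin: the cyclase-associated proteins CAP1 and CAP2, the cofilins and destrin, and the profilins. They are 7 of 18194 genes named on the array and were read on 14 of its 45101 probe sets, every probe set that the platform annotation gives to exactly 1 of these 7 symbols, and all 14 passed the filter on weak signals. The genes were chosen by their array signals in this same comparison of genotypes. Their differences between the groups are therefore given as a description, and whether a member passed a test of this contrast is not a result here. The arrays held total RNA of whole hearts of 15 male mice aged 10 weeks, 1 array per mouse. Control mice gave 8 arrays, and mice heterozygous for Lmna H222P, a substitution in the gene for lamins A and C, gave 7. The strain of the mice and the genotype of the controls beyond the word control are not given in the sources used here. Nothing in the labels says whether mice shared litters or batches.

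Actin filaments grow at one end and are taken apart at the other. Cofilin and destrin bind older filaments, sever them and speed the loss of subunits; CAP proteins help them do so and reload the freed subunit with ATP; profilin then carries it back to the growing end. Cap1, Cfl1 and Pfn1 are the broadly expressed forms, Cap2 and Cfl2 are prominent in striated muscle, and Pfn2 is best known from neurons. Mice without CAP2 develop dilated cardiomyopathy, and CFL2 mutations cause a nemaline myopathy in humans. In hearts of mice with Lmna H222P, ERK kinases were reported to phosphorylate cofilin-1. The arrays measure transcripts, so phosphorylation is not measured here.

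The promoters of Cap1 and Cfl2, the genes with a probe set whose groups did not overlap, and of Cap2, the relative of Cap1, are shown as the 250 bases before the RefSeq start site (assembly GRCm38.p6), 5′ to 3′ on the gene's strand. All 7 genes matched a promoter entry. Capitals mark the motifs searched on both strands. The TATA box, searched as TATAAA, occurs in 12.4% of 32851 promoter windows of that length. The CCAAT box occurs in 33.8% of them, the GC box, searched as GGGCGG, in 32.7%, and the CArG box bound by serum response factor in 1.47%.
Cap1, chr4:122886077-122886326, minus strand: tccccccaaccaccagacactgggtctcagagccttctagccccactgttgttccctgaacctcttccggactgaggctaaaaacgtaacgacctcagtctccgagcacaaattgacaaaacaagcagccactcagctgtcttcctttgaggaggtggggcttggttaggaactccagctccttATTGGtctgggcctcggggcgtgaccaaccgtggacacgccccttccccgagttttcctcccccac
Cap2, chr13:46501653-46501902, plus strand: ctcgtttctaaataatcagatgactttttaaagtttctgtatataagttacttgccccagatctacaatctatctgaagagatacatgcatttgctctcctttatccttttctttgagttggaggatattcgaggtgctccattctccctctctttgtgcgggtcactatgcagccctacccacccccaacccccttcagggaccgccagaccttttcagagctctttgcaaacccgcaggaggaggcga
Cfl2, chr12:54862878-54863127, minus strand: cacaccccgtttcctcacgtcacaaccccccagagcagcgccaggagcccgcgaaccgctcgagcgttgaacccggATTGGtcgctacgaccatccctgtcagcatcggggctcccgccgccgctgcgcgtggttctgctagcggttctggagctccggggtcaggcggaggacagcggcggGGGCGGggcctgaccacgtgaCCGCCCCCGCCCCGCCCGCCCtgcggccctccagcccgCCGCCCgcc

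The Cap1 window held 1 CCAAT box on the opposite strand, ending 61 bases before the start site. The Cfl2 window held 1 CCAAT box and 6 GC boxes on either strand, some overlapping each other, and the Cap2 window held none of the 4 motifs. None of the 7 windows held a TATA box or a CArG box. The windows differed in base composition, with 57.2% G or C for Cap1, 46.4% for Cap2 and 74.4% for Cfl2. A match is a run of letters and not a measured binding site.

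Cap1 differed most between the groups. Both of its probe sets were higher in heterozygous hearts, 4.29-fold and 2.75-fold by ratio of geometric means, while those of its relative Cap2 stood at 1.20-fold and 1.12-fold. Cap1 signal on probe set 1417462_at was 29.0 units at the lowest, 40.5 at the median and 66.0 at the highest of 8 control arrays, and 101.3, 177.2 and 332.6 units over the 7 heterozygous arrays. Every heterozygous array lay above every control array. In log2 signal this was 5.40 ± 0.45 (SD, n = 8) against 7.50 ± 0.69 (SD, n = 7), a difference of 2.10. Control signals on this probe set were below the lowest array median, 56.7 units, on all but 2 arrays, at 60.1 and 66.0 units. Where a floor was set at a log2 signal of 6, its difference was 1.49.

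The brighter Cap1 probe set, 1417461_at, spread more widely. Its control arrays ran from 94.0 over a median of 151.6 to 222.9 units, and its heterozygous arrays from 128.0 over 522.3 to 849.3 units. Of the 7 heterozygous arrays 5 lay above all controls, at 478.0 units or more. Arrays 2 and 6, at 149.3 and 128.0 units, lay within the control range. The same arrays 2 and 6 were the lowest heterozygous arrays on 1417462_at, at 103.8 and 101.3 units. The mean log2 signal of 1417461_at was 1.46 higher in heterozygous hearts, at 8.67 ± 1.10 (SD, n = 7) against 7.21 ± 0.42 (SD, n = 8) in controls, and the SD was 2.62 times as large.

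Cap2, the muscle form of CAP, was measured at higher signal. Probe set 1450910_at gave 1272 to 1632 units in control hearts (median 1586) and 1515 to 2115 units in heterozygous hearts (median 1863). Of the 7 heterozygous arrays 6 lay above all controls, while heterozygous array 2 lay within the control range. The log2 difference was 0.27, from 10.58 ± 0.12 (SD, n = 8) to 10.85 ± 0.14 (SD, n = 7), and it was 0.47 after median centring, in which every array is given the same median. The other Cap2 probe set, 1423222_at, overlapped almost fully, at 475 to 1014 units in control and 518.6 to 902.3 units in heterozygous hearts. The plot of signals by group shows all 14 probe sets.

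**Figure D1:**
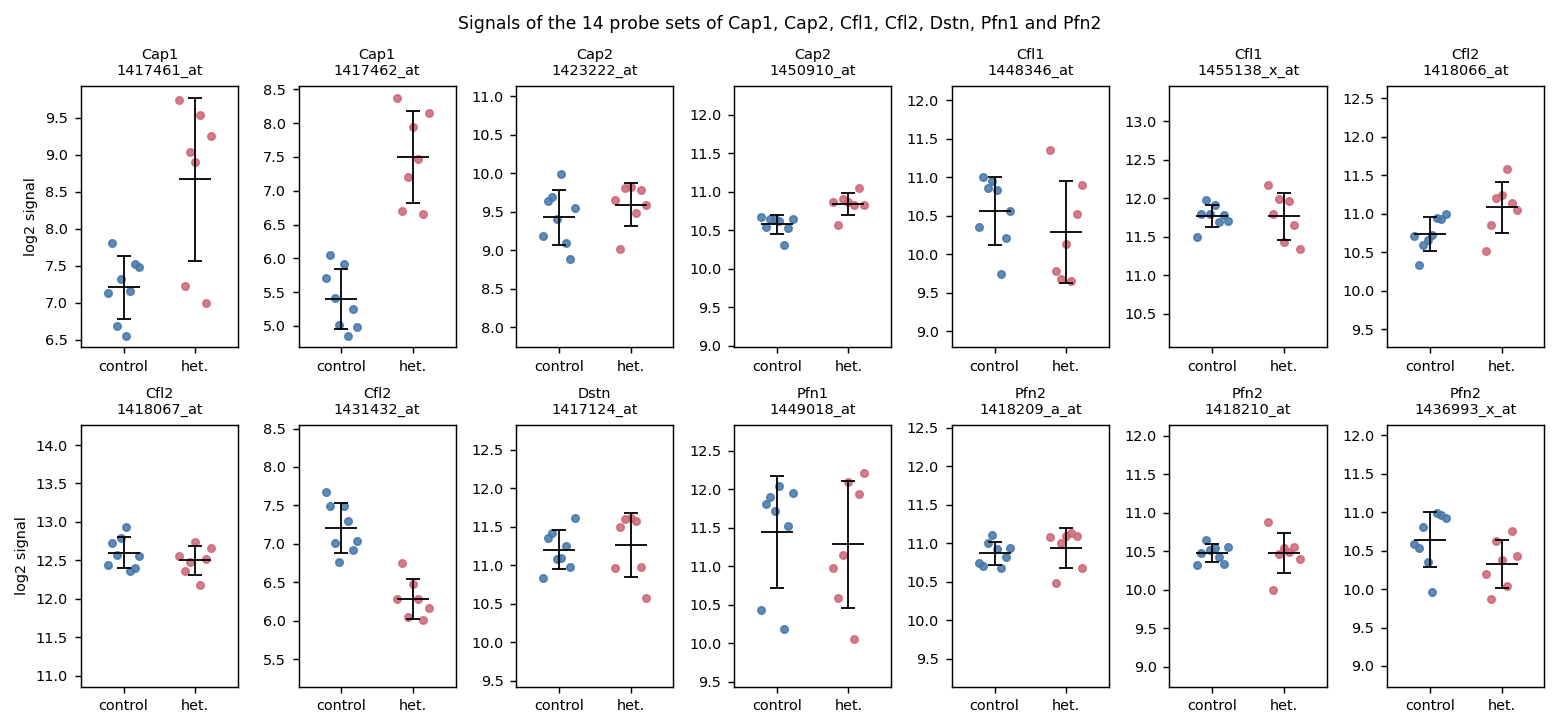
Log2 signal (vertical axis) of each of the 14 probe sets in 8 control arrays (blue) and 7 heterozygous arrays (red), 1 point per array, with the group mean as a horizontal bar and 1 SD as the error bar; the vertical axes differ in level. Groups do not overlap in Cap1 1417462_at, where heterozygous arrays are higher, and in Cfl2 1431432_at, where they are lower.

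The 3 probe sets of Cfl2, the muscle cofilin, did not move together. The brightest, 1418067_at, gave 5249 to 7830 units in control and 4655 to 6870 units in heterozygous hearts, a log2 difference of -0.10 that became 0.11 after median centring. Probe set 1418066_at was higher in heterozygous hearts by 0.35, with 1293 to 2048 units in control and 1466 to 3073 in heterozygous hearts, and 5 of the 7 heterozygous arrays lay above all controls. The weakest, 1431432_at, was lower in heterozygous hearts. It gave 108.6, 144.5 and 205.0 units at the lowest, median and highest control array, and 64.5, 77.8 and 107.7 units in heterozygous hearts. The groups did not overlap, but the nearest arrays, 108.6 and 107.7 units, lay side by side. The log2 difference was -0.92, from 7.21 ± 0.33 (SD, n = 8) to 6.29 ± 0.26 (SD, n = 7). A single direction for Cfl2 cannot be given from these probe sets.

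Cfl1, the cofilin of most cells, had no direction held by both probe sets. Probe set 1448346_at gave 853.3 to 2047 units in control hearts (median 1670) and 800.8 to 2604 units in heterozygous hearts (median 1125). Its log2 difference of -0.28 was smaller than its SD in either group, 0.44 and 0.66. Probe set 1455138_x_at gave 2898 to 4045 and 2599 to 4631 units, a log2 difference of 0.00. By Affymetrix naming, the ending _x_at marks a probe set with probes that may also bind other transcripts. Dstn, which encodes destrin, had a single probe set at 1823 to 3137 units in control and 1521 to 3125 units in heterozygous hearts, with a log2 difference of 0.05 that was -0.01 after quantile normalization.

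The profilins likewise overlapped between the groups. Pfn1, with 1 probe set, had the widest spread of the 14 among controls, from 1159 over a median of 3473 to 4219 units, and ran from 1062 over 2263 to 4749 units in heterozygous hearts. In log2 signal this was 11.44 ± 0.72 (SD, n = 8) against 11.28 ± 0.82 (SD, n = 7), a difference of -0.16 that was 0.05 after median centring. Pfn2 on 1418209_a_at and 1418210_at differed by 0.07 and 0.00 in log2 signal. The third probe set of Pfn2, 1436993_x_at, was lower by 0.31, at 994.3 to 2026 units in control and 933.2 to 1723 units in heterozygous hearts, and 4 of the 8 control arrays lay above all heterozygous arrays.

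Of the 14 probe sets 7 had a higher and 7 a lower mean in heterozygous hearts, with a median log2 difference of 0.03. Over all 38870 probe sets tested the median was -0.11, and 39.9% were above 0. That median became 0.10 after median centring and -0.02 after quantile normalization, so small differences are read against it. Differences beyond 0.5 in either direction were found in 3 of the 14 and in 31.9% of all. Called, that is past an adjusted p of 0.05 in limma's moderated test with Benjamini-Hochberg adjustment over all tested probe sets, were 2 of the 14, Cap1 1417462_at higher and Cfl2 1431432_at lower. Of all tested probe sets 0.252% were called, 0.0900% higher and 0.162% lower, and in 0.468% the groups did not overlap. Since these genes were chosen on this contrast, nothing is read from that count or from either call. The balance of calls over all probe sets hung on the scaling: 35 were higher and 63 lower on the deposited scale, 51 and 14 after median centring, and 37 and 28 after quantile normalization.

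**Figure D2:**
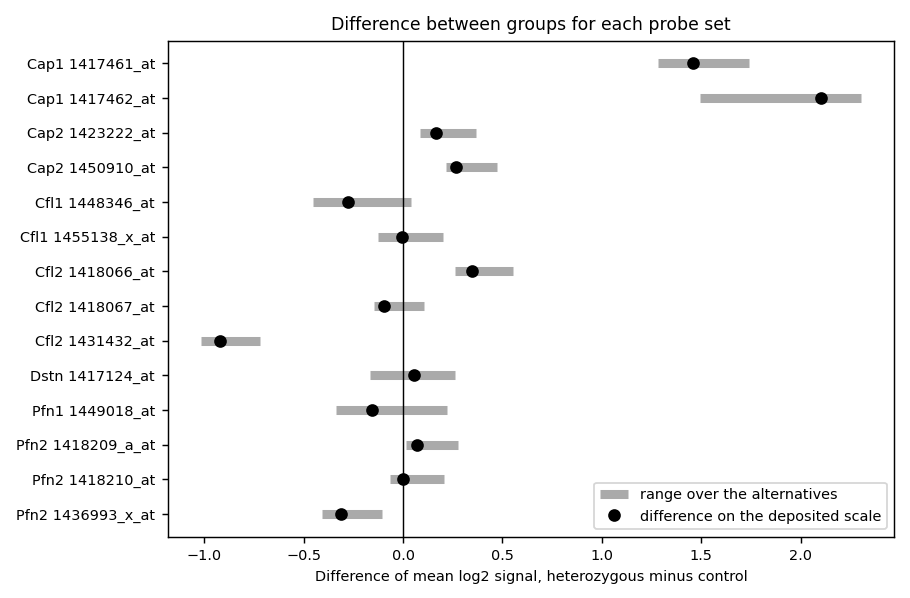
Difference of mean log2 signal, heterozygous minus control (horizontal axis), for each of the 14 probe sets (rows): black points give the value on the deposited scale and grey bars the lowest and highest value over 22 alternative settings. Both Cap1 bars lie above 1, the bar of Cfl2 1431432_at lies below -0.5, and the bars of Cfl1, Dstn, Pfn1, Cfl2 1418067_at and Pfn2 1418210_at cross 0.

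Spread between mice, apart from genotype, was compared with group means subtracted, as Pearson's r over the 15 arrays. Probe sets of 1 gene did not always move together from array to array. The pair for Pfn2, 1418209_a_at and 1418210_at, gave r = 0.76 (permutation p = 0.00121, adjusted over 9 pairs 0.0109) and Spearman's rho = 0.70 (permutation p = 0.00594, adjusted 0.0535), with r = 0.55 without the 2 arrays farthest from the median. The Cap2 pair had r = 0.64 (adjusted permutation p = 0.0684) and rho = 0.49 (adjusted permutation p = 0.244), with r = 0.46 without the 2 farthest arrays. The Cap1 pair had r = 0.61 (adjusted permutation p = 0.133) and rho = 0.55 (adjusted permutation p = 0.244), which became r = 0.26 without heterozygous arrays 2 and 6, so the Cap1 relation rests on those arrays. The 3 Cfl2 pairs had r of -0.40, -0.25 and -0.03, the Cfl1 pair 0.10, and the 2 pairs of Pfn2 1436993_x_at 0.09 and 0.15, with adjusted permutation p of 0.324 or more. For scale, all 24861 pairs of tested probe sets of 1 gene had a median r of 0.10. The 4539 pairs with both mean log2 signals above 8, a class that leaves out the Cap1 pair and those with Cfl2 1431432_at, had a median r of 0.30.

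**Figure D3:**
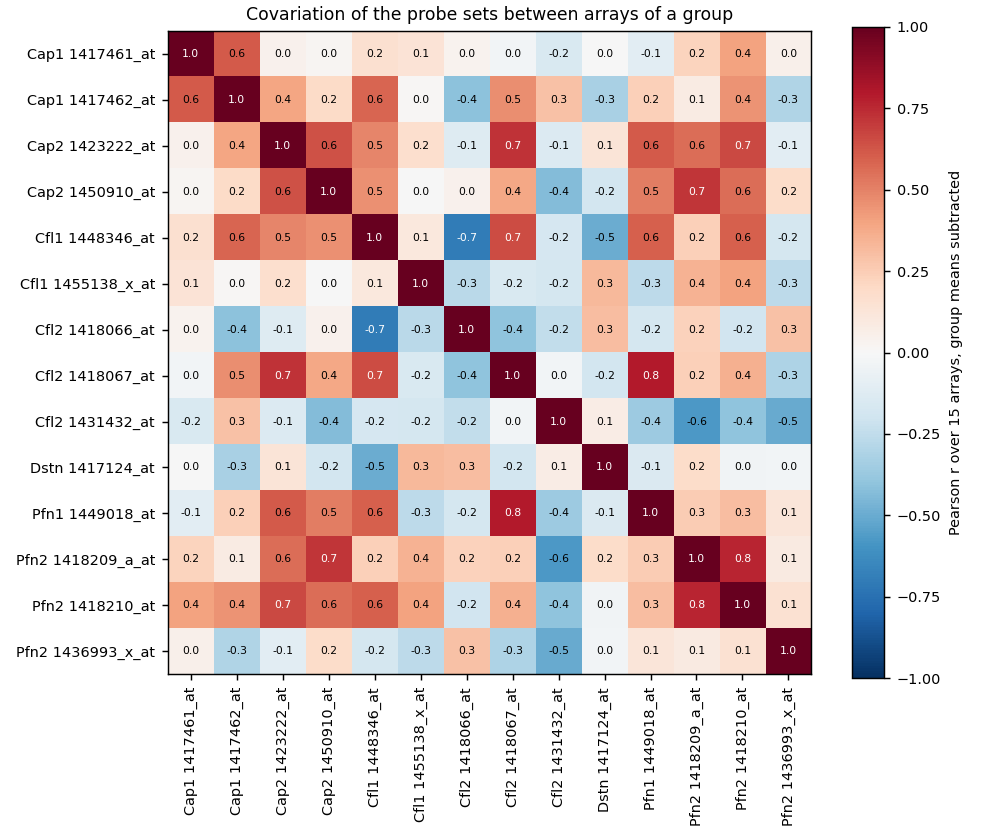
Pearson's r (colour and printed value, rounded to 1 decimal) between every 2 of the 14 probe sets over 15 arrays after subtracting each group's mean; rows and columns are the probe sets, red is positive and blue negative. Cfl2 1418067_at and Pfn1 show r = 0.80, while Cfl1 1448346_at and Cfl2 1418066_at show r = -0.70.

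Cfl1 1448346_at and Pfn1 varied most closely with a sign of RNA quality, though their rank correlations did not pass adjustment. The log2 ratio of the 3′ to the 5′ Actb control probe set, which grows as RNA is degraded or labelled incompletely, ran from 0.29 to 1.23 in control and from 0.33 to 1.69 in heterozygous arrays. It exceeded 1 on control array 6 and on heterozygous arrays 2, 3 and 5. Its group means, 0.64 ± 0.30 (SD, n = 8) and 0.91 ± 0.55 (SD, n = 7), differed by less than the spread within the heterozygous group (exact permutation p = 0.240, adjusted over 11 array values 0.437). The like ratio for Gapdh had means of -0.13 and -0.01 (adjusted exact permutation p = 0.437).

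With group means subtracted, Cfl1 1448346_at was lower where that ratio was higher, with r = -0.81 (permutation p = 0.00115, adjusted over 14 probe sets 0.0161) and rho = -0.73 (permutation p = 0.00574, adjusted 0.0804). Pfn1 did likewise, with r = -0.76 (permutation p = 0.00291, adjusted 0.0204) and rho = -0.63 (permutation p = 0.0306, adjusted 0.143). Without heterozygous array 2 and control array 6, the arrays farthest from the median ratio, r was -0.76 for Cfl1 and -0.67 for Pfn1. Cap2 1450910_at had r = -0.65 (adjusted permutation p = 0.0425) and rho = -0.38 (adjusted permutation p = 0.322), and r = -0.19 without those 2 arrays, so that relation rests on them. The other 11 probe sets had an r between -0.62 and 0.50, with adjusted permutation p of 0.0574 or more; Cap1 1417462_at had r = -0.37 and Cfl2 1431432_at r = 0.50. Over all tested probe sets the median r was 0.09, and 1.73% had an r of -0.7 or below.

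Most low arrays of Pfn1 had a high ratio. Pfn1 was 1159 units on control array 6 and 1377 units on control array 1, against 2937 or more on the other 6 controls, and 1062 and 1532 units on heterozygous arrays 5 and 2. Heterozygous array 1 departed from this, with a Pfn1 signal of 2011 units at a ratio of 0.42, below the 2263 units of array 3 at a ratio of 1.32. With the ratio as a covariate in the fit, the genotype difference of Pfn1 was 0.22 in place of -0.16, and that of Cfl1 1448346_at was 0.01 in place of -0.28. With the 4 arrays of ratio above 1 left out, a choice made after seeing the data, these differences were 0.18 and 0.04. Those of Cap1 were 2.31 and 1.51 there, and that of Cfl2 1431432_at was -0.96. The mean ratio was itself higher in heterozygous than in control arrays, 0.91 against 0.64, so ratio and genotype cannot be fully told apart. The part of RNA quality in any of these differences was not tested.

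**Figure D4:**
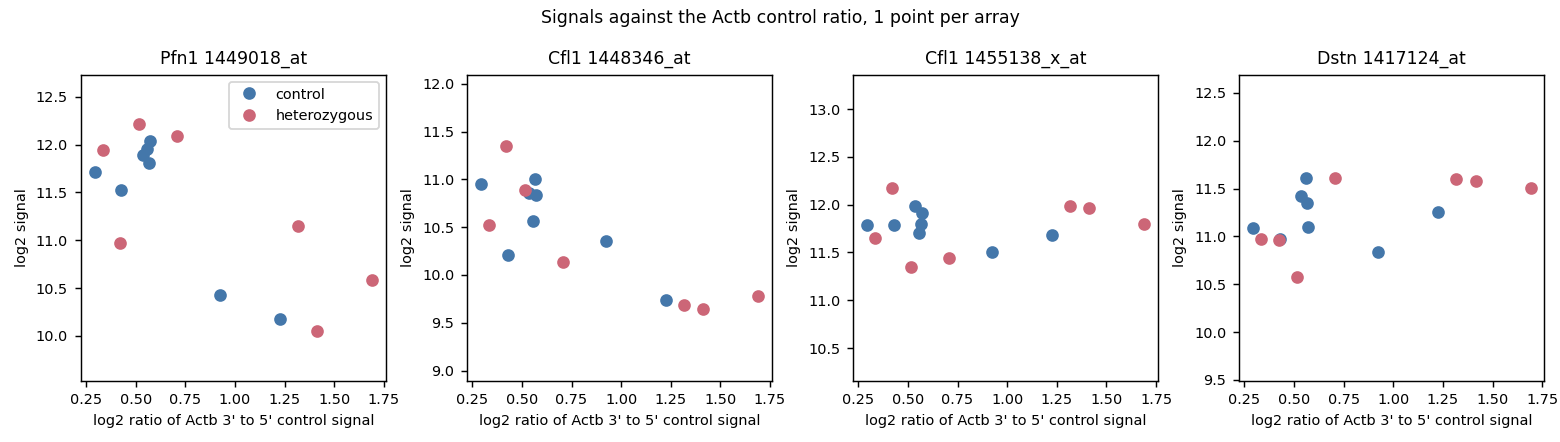
Log2 signal of Pfn1, of both Cfl1 probe sets and of Dstn (vertical axes, all of the same span) against the log2 ratio of the 3′ to the 5′ Actb control signal (horizontal axis), 1 point per array, 8 control (blue) and 7 heterozygous (red). Pfn1 and Cfl1 1448346_at are low on most arrays of high ratio, while Cfl1 1455138_x_at and Dstn are not.

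Markers of other cells in the heart differed between the groups as well. The marker lists were chosen with earlier results of these data known. Their permutation p-values are therefore given as a description and not as independent support. The mean log2 signal of 8 measured cardiomyocyte markers out of 8, among them Myh6 and Tnnt2, was 14.40 ± 0.41 (SD, n = 8) in controls, against 14.41 ± 0.39 (SD, n = 7) in heterozygous hearts (exact permutation p = 0.951). Atrial markers (8 of 9 measured) ran from 6.79 to 8.67 in control and from 8.56 to 10.54 in heterozygous arrays (exact permutation p = 0.000622, adjusted 0.00342). The atrial mean was carried by Sln, Myl7, Myl4 and Pam, with log2 differences of 6.37, 4.69, 2.83 and 2.10, while Bmp10 and Kcna5 stood at -0.81 and -0.62. Control signals of Sln began at 2.8 units. Its 7 heterozygous arrays, at 241.0 units or more, were by themselves enough to pass the filter on weak signals. Smooth muscle markers (6 of 6) ran from 7.46 to 8.35 and from 8.08 to 8.82 (exact permutation p = 0.00124, adjusted 0.00456). Here Cnn1, Tagln, Lmod1 and Myh11 had log2 differences of 1.41, 0.89, 0.85 and 0.60, while Myocd stood at 0.10 and Smtn at -0.30. Cnn1 and Lmod1 were weak, at most 167.2 and 102.6 units on any array. Erythroid markers (4 of 8) were lower, from 7.58 to 8.50 against 6.70 to 7.47, with the smallest p the permutations can give (exact permutation p = 0.000311, adjusted 0.00342). Platelet markers (6 of 7) ran from 7.27 to 7.95 against 6.14 to 7.48 (exact permutation p = 0.00622, adjusted 0.0171). The platelet mean was carried mostly by Ppbp at -1.97 and Treml1 at -1.24. The other platelet markers lay between -0.56 and -0.18, with Pf4, the brightest, at -0.18. Fibroblast (8 of 8), endothelial (6 of 6), leukocyte (8 of 8) and skeletal muscle markers (6 of 6) did not pass after adjustment, with control means of 10.33, 9.41, 9.10 and 4.07 and heterozygous means of 10.75, 9.53, 9.29 and 4.42. The fibroblast list came nearest (exact permutation p = 0.0286, adjusted 0.0629), and the others had an adjusted exact permutation p of 0.437 or more. No marker was listed at 0, and the skeletal muscle genes reached at most 118.1 units on any array.

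Blood cells and smooth muscle also express Cap1, Cfl1 and Pfn1, and in whole hearts a change in the number of cells of a type and a change in RNA per cell cannot be told apart. With group means subtracted, the probe sets Cap1 1417462_at and Cfl2 1431432_at were set against the 9 marker means and the 2 control ratios. Adjusted over the 22 relations, no permutation p of r was below 0.506. For Cap1 the r with the atrial mean was -0.22 (rho = -0.19), with the smooth muscle mean 0.02 (rho = 0.06) and with the erythroid mean -0.45 (rho = -0.37). The part of these cell types in the differences between groups was not tested.

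The other genes of actin turnover were taken from a list of 83, of which 72 had a tested probe set. In limma's test with Benjamini-Hochberg adjustment 0 of the 72 passed, where 0.289% of all 16627 named genes did, each by its brightest tested probe set. At an unadjusted p under 0.05 there were 9 higher and 4 lower, 18.1% of the list, against 15.2% of all named genes. Of the 72 genes 40 had a higher and 32 a lower mean in heterozygous hearts, with a median log2 difference of 0.07 against -0.08 over all named genes. After median centring 61 were higher and 11 lower, with medians of 0.28 and 0.13, and after quantile normalization 41 and 31, with medians of 0.04 and -0.03. The counts by role below are those on the deposited scale.

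Among the 6 actin isoforms, the smooth muscle actin Acta2 had the smallest p, at 3168 to 5039 units in control (median 3668) and 4371 to 9424 units in heterozygous hearts (median 6858). Its log2 difference was 0.77 with limma's adjusted p = 0.0755, and its other tested probe sets reached -1.55 and 0.95. Acta2 passed limma's adjusted threshold with a filter or a floor at a log2 signal of 6, and without heterozygous array 2. The smooth muscle marker mean was also higher in heterozygous hearts, by 0.59, and its part in the Acta2 difference was not tested. The remaining 5 isoforms had lower means on the deposited scale, while 3 of the 6 were higher after median centring. The lowest, chosen after their values were seen, were the skeletal actin Acta1 at -0.98 (limma's adjusted p = 0.248) and the enteric smooth muscle actin Actg2 at -0.68 (limma's adjusted p = 0.155). Of 12 formin and Ena/VASP genes, which build filaments from profilin-bound actin, 7 had a higher mean. Enah, the Ena protein of that family, had the smallest p, with a log2 difference of 0.64 and limma's adjusted p = 0.160. All 6 tested probe sets of Enah were above 0, from 0.32 to 1.25. Of 9 nucleation promoting factors, which switch on the Arp2/3 complex, 5 had a higher mean. The smallest p was that of Wasf3, a weak signal of 11.4 units in heterozygous and 38.7 units in control hearts (limma's adjusted p = 0.188).

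Of 6 tested subunits of the Arp2/3 complex, which branches filaments, 5 had a higher mean, and Arpc2 came first with a log2 difference of 0.29 (limma's adjusted p = 0.334). Of 9 severing partners, proteins that cut filaments or help cofilin do so, 6 had a higher mean. Coro1c, a coronin, had the smallest p there, 3.33-fold lower with limma's adjusted p = 0.181, though another of its 4 tested probe sets stood at 0.40. Of 10 kinases and phosphatases that act on cofilin or upstream of it, 6 had a higher mean. The kinase Rock1, which acts upstream of the cofilin kinases LIMK, came first at 0.22 (limma's adjusted p = 0.480), and its 5 tested probe sets ran from 0.22 to 0.85. The 8 end capping genes lay between -0.12 and 0.39, the highest being Eps8 (limma's adjusted p = 0.382), and 8 were higher after median centring but 2 after quantile normalization. Of 8 monomer binding genes and relatives of cofilin or profilin, 6 had a lower mean, which became 3 after median centring, while Dbnl, an actin-binding adaptor with a cofilin-like domain, had the smallest p at 0.31 (limma's adjusted p = 0.406). A further list held Srf, which encodes serum response factor, its coactivators Mrtfa and Mrtfb, which sense free actin, and Abra. These 4 genes lay between 0.16 and 0.24, above 0 under both other scalings too, with Mrtfa first (limma's adjusted p = 0.524). Other probe sets of Srf and Mrtfb stood at -0.32 and -0.72.

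**Figure D5:**
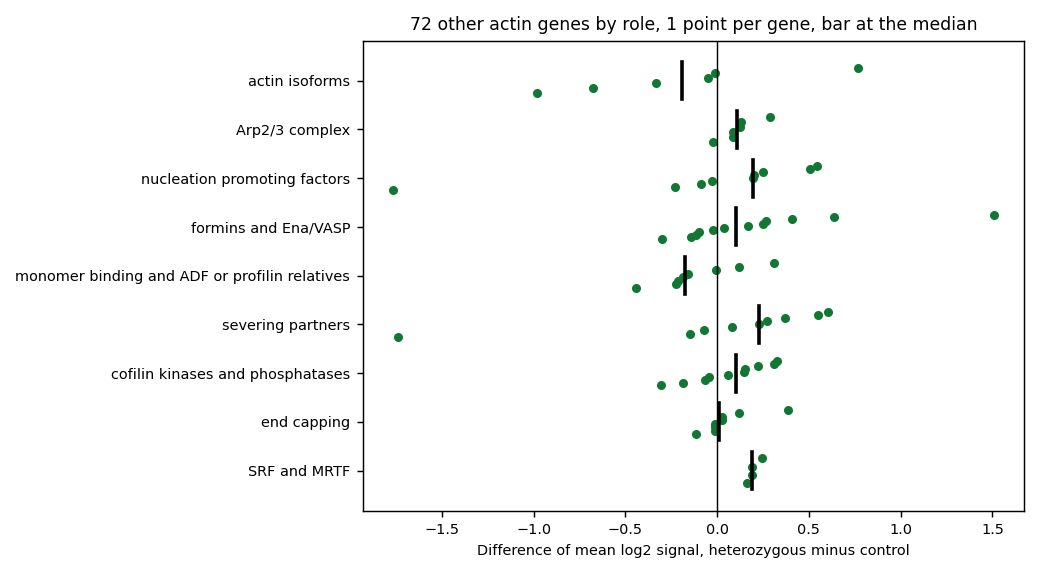
Difference of mean log2 signal, heterozygous minus control (horizontal axis), of 72 listed actin genes that are not CAP, cofilin or profilin genes, grouped by role (rows); each point is a gene by its brightest tested probe set and each black bar the median of the role. No gene passed limma's adjusted threshold; role medians on this scale ran from -0.19 for the actin isoforms to 0.23 for the severing partners.

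The genes whose signals followed each member most closely from array to array were sought among all tested probe sets, with group means subtracted, over the 15 arrays. The brightest probe set of each member was used, and the 3 genes of highest r are given as a description. Values picked as the highest among 38870 probe sets over 15 arrays can be large by chance alone. Pfn1 was followed by Chpt1 (r = 0.97), Pdia3 (r = 0.96) and Kcnk3 (r = 0.96), with rho from 0.93 to 0.95. Cfl2 was followed by Septin8, Rab35 and Sf3b2, each with r = 0.92 and rho from 0.90 to 0.91. Dstn was followed by Eml3 (r = 0.92, rho = 0.91), Cep44 (r = 0.83) and Kcnt1 (r = 0.83). Cap2 was followed by Tspan9 (r = 0.94), Gmfb (r = 0.92) and Nudt21 (r = 0.90), but their rho was only 0.58 to 0.68. Gmfb encodes a cofilin relative of the list above. Pfn2 was followed by Akap10 (r = 0.92), Plekha7 (r = 0.88) and Cpe (r = 0.87). Cfl1, on 1455138_x_at, was followed by Apol11b (r = 0.88), Xpo6 (r = 0.86) and Klhl32 (r = 0.86). Cap1 was followed by Nktr (r = 0.94, rho = 0.80), Rae1 (r = 0.86) and Gh (r = 0.86). Of these 3 only Gh shared a higher mean in heterozygous hearts with Cap1, at 0.19, while Nktr stood at -0.73 and Rae1 at -1.82. All these probe sets share the arrays, their scaling and their RNA quality.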

How the data were processed

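Total RNA of whole hearts was labelled with biotin and read on 1-colour Affymetrix arrays, per the labels' protocols. For each array the authors deposited an intensity per probe set. The submitters' processing notes name GCRMA, with no version. The values do not look like GCRMA output: they are linear and share a trimmed mean of 250.0 (2% off each end) on every array, as signals scaled to a common target do. How probes were summarised is not given in the sources used here. Array signals have no counts behind them, so the number of arrays limits the precision. Array medians ran from 56.7 to 94.2 units. Spearman correlations between arrays were 0.813 to 0.912, and no array was a copy of another. Every sample column was used.

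Signals were log2-transformed without a pseudocount. The array's own controls, 64 probe sets, were dropped, and tests took in the probe sets with a log2 signal over 4 on 7 or more of the 15 arrays. The groups were fitted with lmFit and eBayes of limma 3.58.1 in R 4.3.3, two-sided and without covariates. Its p-values speak only of the spread among these mice. Genes took their names from the platform annotation, and only probe sets with 1 symbol were named. Named were all 7 members with every probe set, the gene of smallest p in each role list, and 3 genes most alike per member. The members and lists were chosen with earlier results of these data known. Marker means and control ratios were tested by exact permutation of the group labels, two-sided, and correlations, also two-sided, with 100000 permutations within groups (scipy 1.17.1, Python 3.11.15). On simulated arrays of 38870 probe sets the test called 2% of the added log2 changes of 0.5 and 44% where 1 was added. The shares were 58% for a change of 2 and 100% for 4, and 7 calls were false. The simulated noise was normal, independent between probe sets and of equal SD in both groups. These shares therefore leave out variation that probe sets of real arrays share, such as RNA quality and scaling. Of the listed actin genes, Actr2, Arpc1b, Arpc3, Cyfip1, Fmnl3, Twf1, Gmfg, Rock2 and Pak1 were not analysed here, and Diaph3 and Pfn4 did not pass the filter. Alternatives were other filters and scalings, a floor, array weights, the replicate number as a block, the Actb ratio as a covariate, leaving out arrays and, for the other actin genes, the mean or any of a gene's probe sets. Figures were drawn with matplotlib 3.10.9.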

Additional observations from a re-analysis of the deposited data

Results flagged for a closer look

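Of 50 groups of values examined, 4 held an array that stood apart from the rest of its group by Dixon's criterion, which chance gives in about 1 of 20 groups. On Cap2 1423222_at, heterozygous array 2 had a log2 signal of 9.02, against 9.49 to 9.82 on the other heterozygous arrays. On Cap2 1450910_at, control array 6 had 10.31, against 10.53 to 10.67 on the other controls. These are the arrays with the highest Actb ratio of their groups, at 1.69 and 1.23. The atrial marker mean of control array 6 was 8.67, against 6.79 to 7.66 on the other controls. The fibroblast marker mean of heterozygous array 2 was 9.84, against 10.69 to 11.22 on the other heterozygous arrays. The cause was not tested.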

How the results depend on the processing

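Over 22 alternatives, the log2 difference of Cap1 stayed above 0 on both probe sets, between 1.28 and 1.74 on 1417461_at and between 1.49 and 2.31 on 1417462_at, and that of Cfl2 1431432_at stayed below 0, between -1.02 and -0.72. These genes were chosen on this contrast, so neither their signs nor their calls show stability. The signs of Cfl1, Dstn, Pfn1, Cfl2 1418067_at and Pfn2 1418210_at changed in some. In place of 98 called probe sets, the filter at a log2 of 6 gave 192, the floor at 6 gave 287, and median centring and quantile normalization gave 65 each. Leaving out single arrays gave 17 to 150: 27, 32, 27, 24, 52, 55 and 17 without control arrays 1 to 7, and 40, 20, 54 and 150 without heterozygous arrays 1, 4, 6 and 7. In place of 0 other actin genes, the filter at 6, the floor and the fit without heterozygous array 2 each called 1, Acta2, so single arrays gave 0 to 1. In place of 2 member probe sets, median centring, quantile normalization, no filter and the fit without the 4 arrays of high Actb ratio each called 1, Cap1 1417462_at. Leaving out single arrays gave 1 to 2, and Cfl2 1431432_at was called in only 1 of these 15 fits. The cause was not tested.

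With the replicate number as a block, 1 probe set was called in all, and 0 of the members or other actin genes. Same-numbered arrays had correlations of -0.06 to 0.06 between their deviations, and 2 of 7 control arrays correlated best with their own number. These values show no likeness by number. They cannot show whether mice shared litters or batches, which the labels do not say. Weak signals limit what can be seen: Cap1 1417462_at was near or below the array medians in control hearts, though not in heterozygous hearts. Cfl2 1431432_at was weak in heterozygous hearts, at 64.5 to 107.7 units where the array medians ran from 56.7 to 82.9.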
